A study of Mus musculus with 12 samples.

Results

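Strongly cycling genes whose transcription peaked in the middle of the light phase were examined in mouse liver Nascent-Seq, the sequencing of RNA still bound to chromatin, which reads transcription rather than the standing mRNA pool. The data were 12 libraries from livers of adult male C57BL/6 wild-type mice, 3 to 6 months old, entrained to 12 hr of light and 12 hr of dark, with 2 libraries at each of 6 zeitgeber times (ZT, hours after lights on): ZT0, ZT4, ZT8, ZT12, ZT16 and ZT20. No treatment beyond the light cycle is named, and the groups differed in the time of collection. Values were reads in the exons of a gene per base of exon at a common depth of mapped reads (rpbp), so levels can be compared between genes. A gene was a member when its highest value was over 6 rpbp and more than 75% above its lowest, when a cosine and a sine wave of 24 hr fitted to the 12 values gave an R squared over 0.6, and when the fitted peak fell from 3 up to 9 hr. Of 21490 gene symbols, 6284 exceeded 6 rpbp in at least 1 library and are called tested here. Of these, 401 passed every limit but the window and are called strong. Nr1d1, Nr1d2, Dbp and Sphk2, which peaked in the window, were set aside, which left 119 members in it, 1.89% of the tested ones and 29.7% of the strong ones. Overlapping symbols were merged into 108 loci. The members were chosen by the values of all 12 libraries, so their levels and peaks below are a description and carry no test.

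By mid light a mouse has largely stopped feeding, and the liver is known to move from storing fuel toward burning fatty acids and making glucose and ketone bodies. The core clock works through BMAL1 and CLOCK on E-box DNA elements, through PAR bZIP factors on D-boxes and through REV-ERB and ROR receptors on their own elements, and PPAR alpha is the fatty acid sensor that drives fat oxidation genes. With the 4 genes above set aside, 0 of the 21 tested genes on a list of clock components were members.

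A typical member was transcribed most from ZT4 to ZT8 and least at ZT16, in mid dark. The median member stood at 70.7% of its own highest time-point mean at ZT0, 100% at ZT4, 97.3% at ZT8, 64.4% at ZT12, 45.3% at ZT16 and 59.0% at ZT20. Over all tested symbols the same medians were 79.1%, 81.2%, 79.3%, 83.5%, 70.4% and 78.8%, so ZT16 was the low point there too, though a shallower one. The highest mean lay at ZT4 for 61 members and at ZT8 for 51, 112 in all, against 41.5% of all tested symbols at either time. For 97 members the lowest mean lay at ZT16, as it did for 34.3% of the tested symbols. The early hours of the window were fuller: 35 members peaked from 3 up to 4 hr, 32 from 4 up to 5 hr, 18 from 5 up to 6 hr, 13 from 6 up to 7 hr, 10 from 7 up to 8 hr and 11 from 8 up to 9 hr, with a median of 4.78 hr.

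**Figure D1:**
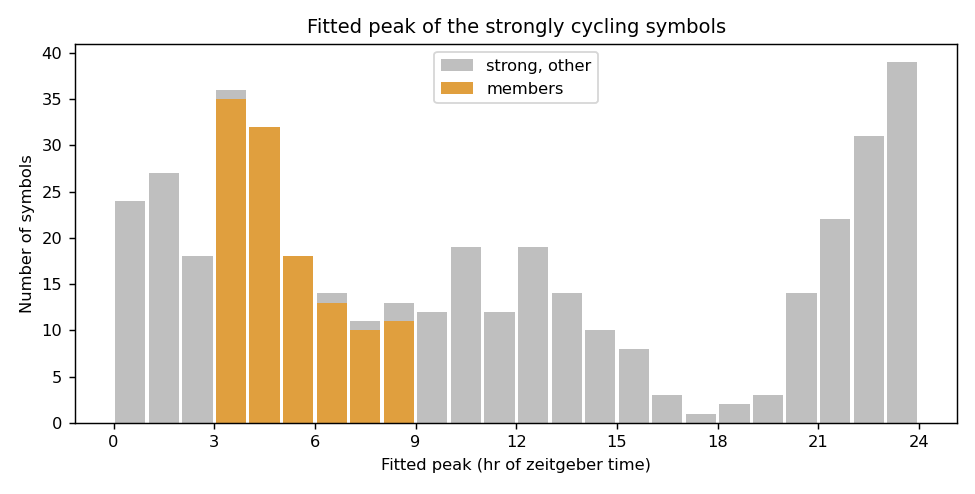
Number of strongly cycling symbols (vertical axis) by fitted peak in hours of zeitgeber time (horizontal axis, 1-hr bins); orange bars are the members and grey bars the other strong symbols, including the 4 set aside. The 35 members peaking from 3 up to 4 hr form the tallest orange bar.

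For 91 members, all 4 libraries of ZT4 and ZT8 lay above all 4 of ZT16 and ZT20, and 4.66% of the tested symbols did so. Both ZT4 libraries lay above both ZT16 libraries for 116 members, but also for 42.2% of all tested symbols. The ZT4 minus ZT16 difference on the log2(rpbp + 1) scale had a median of 0.87 over the members, with a range from 0.10 to 2.59, and a median of 0.20 over all tested symbols. The whole table thus moved the same way by a smaller amount. When each library was rescaled so that the median tested symbol was level, 74 symbols passed the rule, 70 of them among the 119 members, and the median ZT4 minus ZT16 difference of the members was 0.69. Because the rule used these values, nothing is read from the limma F-test over the 6 time points, which called 32 members and 7.65% of all tested symbols at a Benjamini-Hochberg adjusted p under 0.05. In the 8 libraries sequenced on 1 lane, the limma comparison of ZT4 with ZT16 called 6 members higher at ZT4, beside 0.414% of the tested symbols; without either ZT4 library it called 0 members.

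**Figure D2:**
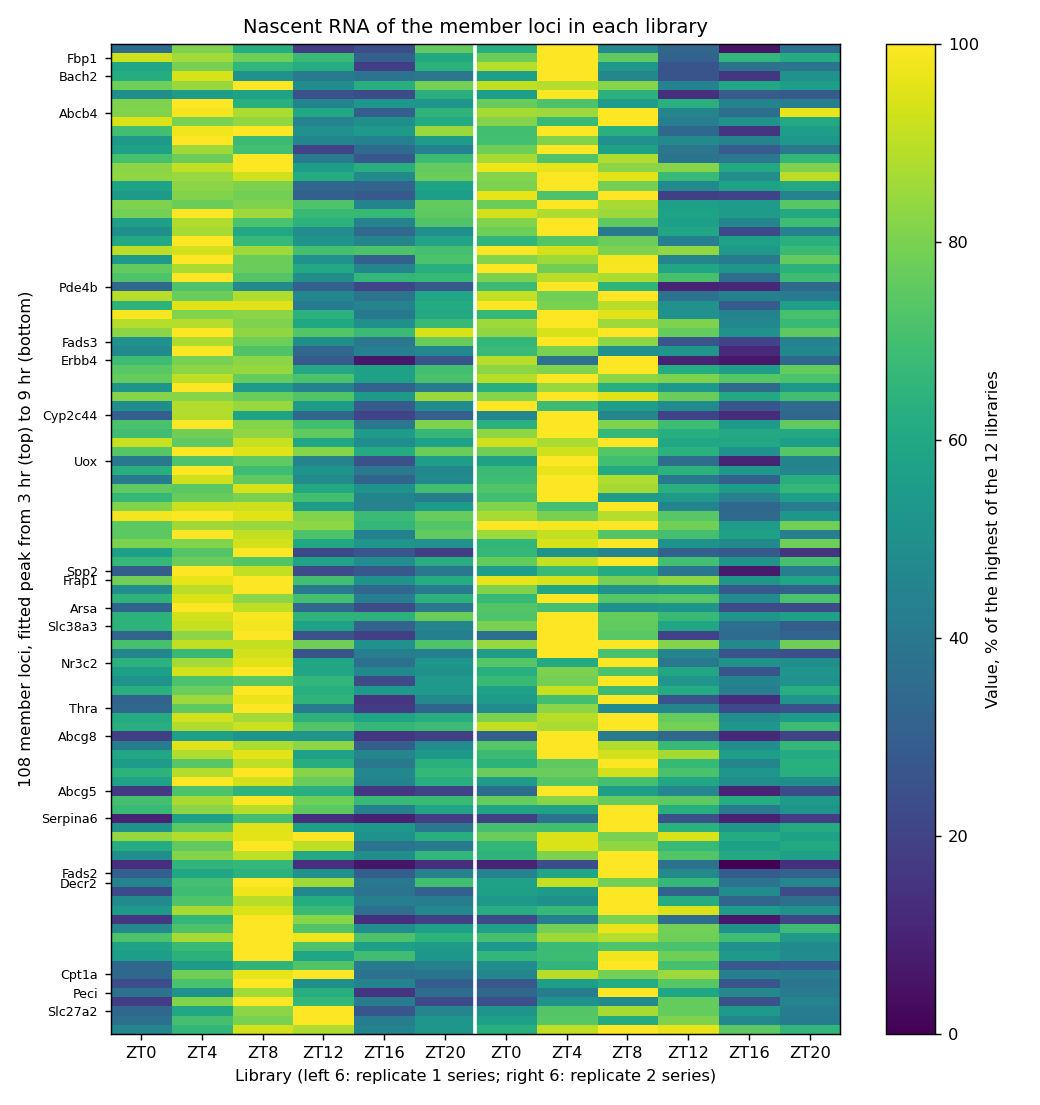
Nascent signal of the 108 member loci (rows, by fitted peak from 3 hr at the top to 9 hr at the bottom) in the 12 libraries (columns, replicate 1 series left and replicate 2 series right), as a percent of the highest of the 12 values. Bright cells fall mostly at ZT4 and ZT8 in both series and dark cells at ZT16; ZT4 replicate 2 holds the highest value of 40 members.

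A comparison between separate libraries came from splitting the data into its series of 6 libraries. It concerns symbols chosen afresh in 1 series and is no test of the 119 members, whose choice used both series. Of the 265 and 272 symbols so chosen, 74 and 83 were members. Applied to the replicate 1 series alone, the rule chose 265 symbols, of which 185 (69.8%) peaked from 3 up to 9 hr in the replicate 2 series. That compares with 39.3% of all tested symbols in the replicate 2 series. In reverse, 182 of 272 symbols chosen in the replicate 2 series peaked in the window in the replicate 1 series (66.9%), where 26.8% of all tested symbols did. Requiring an R squared over 0.6 as well left 76 (28.7%) and 91 (33.5%), beside 8.18% and 8.27% of all tested symbols. No symbol passed the limma test of the cosine and sine terms within 1 series, chosen or not (0% of the tested symbols called at an adjusted p under 0.05 in each series). At an unadjusted p under 0.05 the test called 33 of the 265 (12.5%) in the replicate 2 series, against 5.19% of all tested symbols, and 41 of the 272 (15.1%) in the replicate 1 series, against 9.69%. Timing in the window thus carried over between series more often than in the table at large, without a call on any single gene. Of the members, 48 were chosen in each series separately, and 10 in neither alone.

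**Figure D3:**
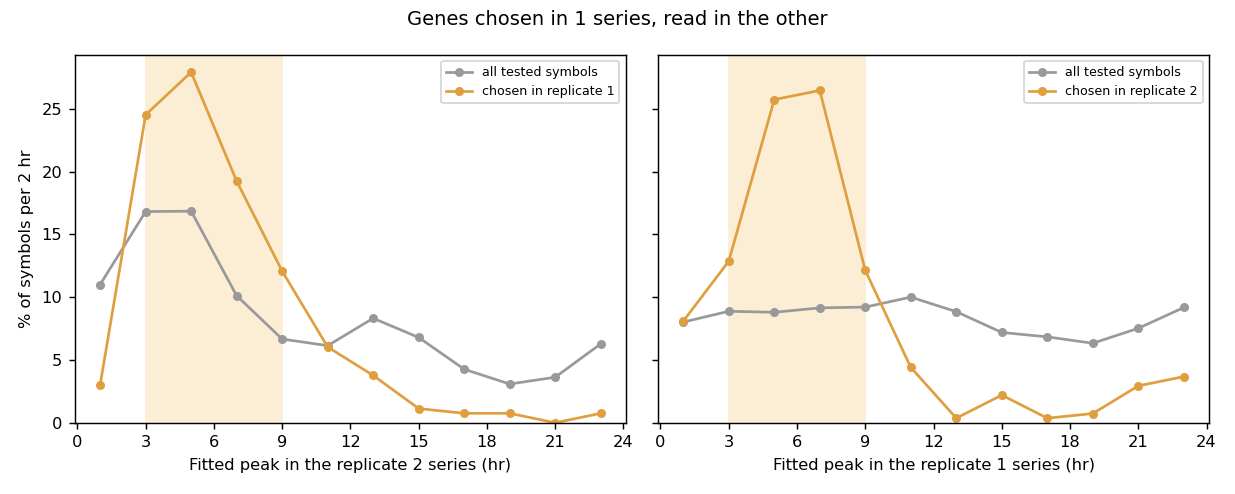
Percent of symbols per 2-hr bin (vertical axis) by the peak fitted in the series that was not used for the choice (horizontal axis, hours); orange lines are the symbols chosen in the other series and grey lines all tested symbols, with the 3 to 9 hr window shaded. The chosen symbols concentrate in the window in both directions (69.8% and 66.9%), and all tested symbols lean toward it more in replicate 2 (39.3%) than in replicate 1 (26.8%).

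Fatty acid oxidation was the function with the most members. On a list of PPAR alpha targets and genes of fatty acid oxidation and ketogenesis, 7 of 58 tested genes were members (12.1%, beside 1.89% of all tested symbols). These were Cpt1a, Slc27a2, Peci, Acadl, Decr2, Acaa1a and Bdh1. At any strength of rhythm, 35 of the 58 (60.3%) peaked from 3 up to 9 hr, beside 35.6% of all tested symbols, and after rescaling the shares were 51.7% and 27.2%. Among the 35 was Ppara itself, which fell just short of membership with an R squared of 0.593 and a fitted peak at 8.08 hr. The share of 60.3% was the highest of any list, but other lists leaned the same way. Oxidative phosphorylation stood at 51.9%, RNA processing at 50.5% and cytochrome P450 at 45.5%, and after rescaling at 37.0%, 37.1% and 36.4%. Nuclear receptors, with Nr1d1 and Nr1d2 counted, had 12 of 24 in the window before and after rescaling. Shares of the remaining lists reached down to 9.26%, for heat shock and stress genes.

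Cpt1a (chr19:3323348-3385732 in mm9, plus strand) encodes the carnitine palmitoyltransferase that admits long-chain fatty acids to mitochondria. It read 13 and 17.7 rpbp at ZT0 (replicates 1 and 2), 30.2 and 34.4 at ZT4, 37.2 and 30.6 at ZT8, 38.6 and 33.0 at ZT12, 14.5 and 17.0 at ZT16 and 15.0 and 16.2 at ZT20. The 6 libraries from ZT4 to ZT12 lay above the other 6 with no overlap, and the fitted peak was 8.35 hr with an R squared of 0.833. Slc27a2, on chromosome 2, encodes a very-long-chain acyl-CoA synthetase and fatty acid transporter and was among the most strongly transcribed members. Its values were 81.1 and 124 rpbp at ZT0, 144 and 176 at ZT4, 199 and 209 at ZT8, 240.3 and 184 at ZT12, 64.4 and 129.8 at ZT16 and 109 and 102 at ZT20. Both genes stayed high at ZT12, unlike most members, and Slc27a2 did not pass the rule after rescaling.

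Peci (now Eci2), a peroxisomal and mitochondrial enoyl-CoA isomerase gene, was sharpest at ZT8, with 20.9 and 24.3 rpbp there, 9.1 and 8.1 at ZT0 and 3.7 and 11.4 at ZT16. The replicates at ZT16 were far apart, and Peci did not pass after rescaling or after removal of a trend with exon GC content. Acaa1a, the peroxisomal thiolase gene, peaked earlier, at 4.97 hr, with 12.1 and 8.1 rpbp at ZT4, 13.5 and 6.9 at ZT8 and 4.5 and 3.7 at ZT16. Bdh1, whose product interconverts the ketone bodies acetoacetate and 3-hydroxybutyrate, peaked earliest of the 7, at 4 hr, and read 10.9 and 8.7 rpbp at ZT4 against 4.7 and 1.3 at ZT16. Decr2, a peroxisomal dienoyl-CoA reductase gene, and Acadl, the long-chain acyl-CoA dehydrogenase gene, peaked at 7.18 and 6.94 hr. Cpt1a, Bdh1, Acaa1a and Decr2 passed the rule on the rescaled values, and the other 3 of the 7 did not.

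**Figure D4:**
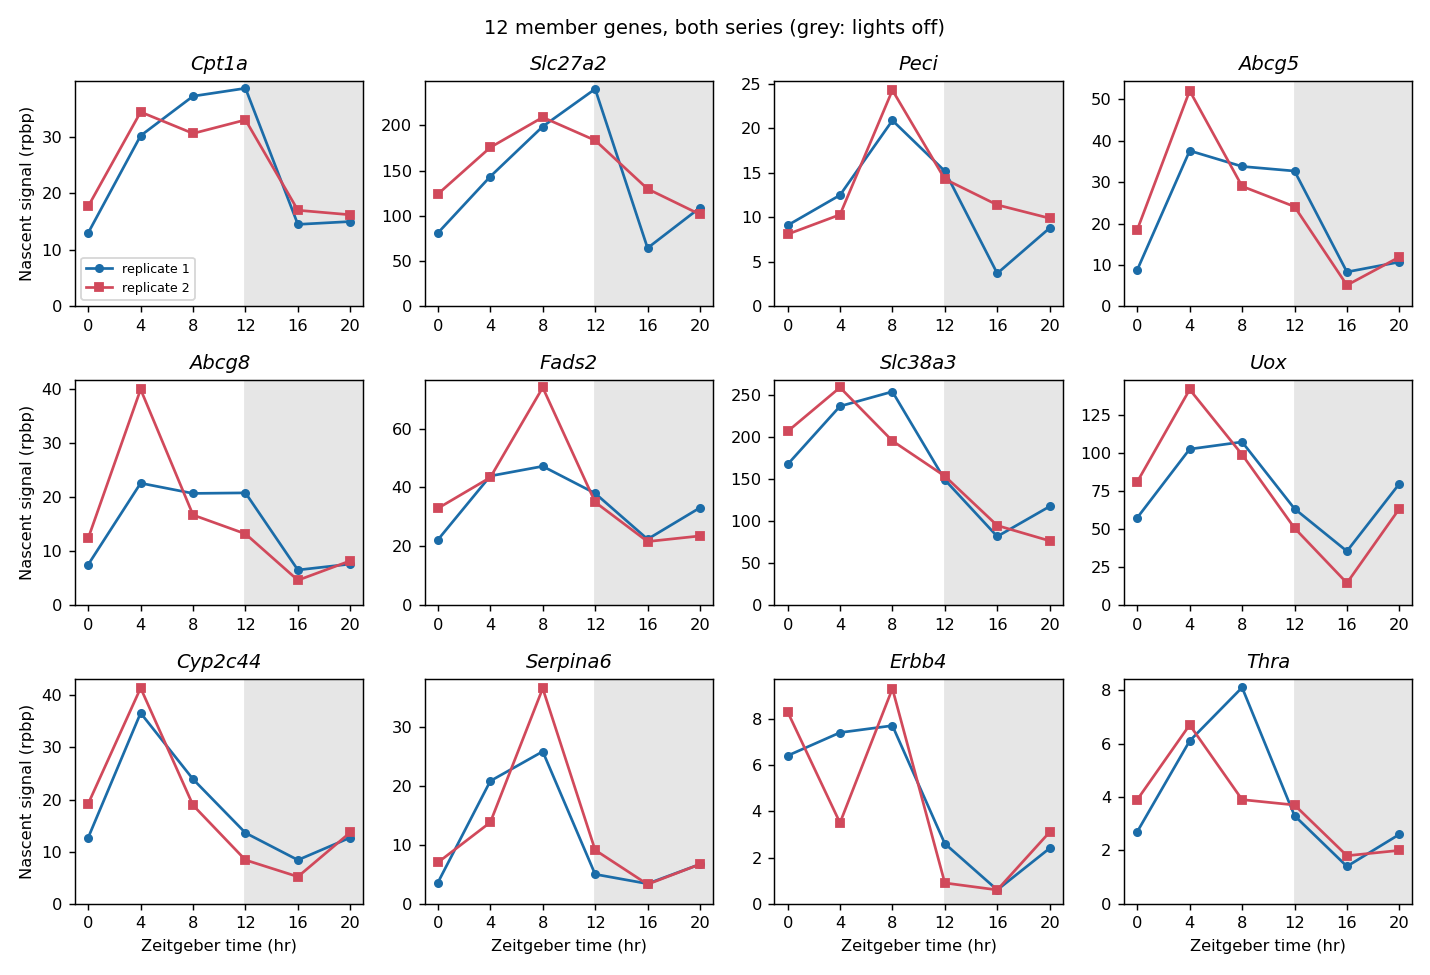
Nascent signal in rpbp (vertical axes, from 0) against zeitgeber time in hours (horizontal axes) for 12 member genes; blue circles are the replicate 1 series, red squares the replicate 2 series, and grey marks lights off. Cpt1a and Slc27a2 stay high at ZT12, Abcg5, Abcg8 and Cyp2c44 are highest at ZT4, and Serpina6 and Peci rise to a point at ZT8.

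A pair of sterol export genes stood together. Abcg5 and Abcg8 encode both subunits of the transporter that pumps cholesterol and plant sterols into bile, and they lie head to head on chromosome 17. Abcg5 (chr17:85057574-85082263, minus strand) and Abcg8 (chr17:85082471-85099673, plus strand) are parted by 207 bases in mm9. That stretch, chr17:85082264-85082470, is shown because both members are transcribed away from it; it is written on the plus strand, from the Abcg5 start to the Abcg8 start.
Abcg5 to Abcg8: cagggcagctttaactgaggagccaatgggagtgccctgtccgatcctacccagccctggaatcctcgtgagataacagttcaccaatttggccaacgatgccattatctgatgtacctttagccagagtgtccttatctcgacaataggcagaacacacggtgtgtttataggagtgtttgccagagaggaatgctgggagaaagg
None of the 6 motif types searched in promoters (named below) occurs in it, on either strand.

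Abcg5 read 8.8 and 18.5 rpbp at ZT0, 37.6 and 52.1 at ZT4, 33.8 and 29.0 at ZT8, 32.7 and 24.1 at ZT12, 8.3 and 5.1 at ZT16 and 10.7 and 11.9 at ZT20. Its neighbour Abcg8 followed at a lower level, with 7.5 and 12.4, 22.6 and 40, 20.7 and 16.7, 20.8 and 13.2, 6.5 and 4.6, and 7.6 and 8.2 rpbp at the same times. In both genes the 4 libraries of ZT4 and ZT8 lay above those of ZT16 and ZT20, and ZT4 replicate 2 was the highest of the 12. The highest time-point mean was 5.95 times the lowest for Abcg5 and 4.93 times for Abcg8, with 1 rpbp added to each mean. Abcg5 passed the rule under all 26 other settings tried and Abcg8 under 21. Some of the 26, such as a lower threshold, could not drop a member.

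Soat2 was the remaining member of the 32 tested genes on the cholesterol list (3 members, 9.38%). It encodes the enzyme that esterifies cholesterol in hepatocytes, peaked at 3.69 hr and read 14.7 and 16.9 rpbp at ZT4 against 5.8 and 3.8 at ZT16. All 3 passed after rescaling. Abcb4, the phosphatidylcholine exporter of the bile canaliculus, joined Abcg5 and Abcg8 among 20 tested ABC transporters (3 members, 15.0%) and was the only member of 25 on a bile acid list. Its values held near 40 rpbp from ZT0 to ZT8, between 38.4 and 47.3, and dropped to 14.2 and 17.1 at ZT16. At ZT20 the replicates parted, at 30.7 and 46.0, and Abcb4 did not pass on rescaled values. Abcc2, another canalicular exporter, lay just outside the rule with an R squared of 0.599 and a fitted peak at 6.15 hr; its values ran from 76.2 to 228.6 rpbp.

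A second cluster was the fatty acid desaturase region of chromosome 19. Fads3 (chr19:10116038-10134161, plus strand) and Fads2 (chr19:10138654-10175993, minus strand) converge there, and the transcript AK192544 lies between their ends, 3960 bases from Fads3 and 146 from Fads2. Fads2, the first desaturase in the synthesis of polyunsaturated fatty acids, was the only member among 19 tested fatty acid synthesis genes. It passed on rescaled values but not after the GC trend was removed. It read 22.2 and 32.9 rpbp at ZT0, 43.9 and 43.4 at ZT4, 47.2 and 74.0 at ZT8, 38.0 and 35.0 at ZT12, 22.4 and 21.6 at ZT16 and 33.1 and 23.5 at ZT20. AK192544 resembled it, with its highest values at ZT8 (60.5 and 92.9 rpbp) and a fitted peak at 8.21 hr against 7.13 hr for Fads2. Fads3 was earlier: 71.8 and 82.0 rpbp at ZT4, 63.9 and 67.9 at ZT8, 40.8 and 21.7 at ZT12, and a peak at 3.98 hr. Fads1, the neighbour on the other side of Fads2, showed no such rhythm (R squared 0.0284).

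Other members close to one another were fewer. In all, 11 of the 108 loci (10.2%) lay within 10 kb of another member locus; the share was 2.80% of the loci peaking around lights on (21 up to 3 hr), 12.2% around lights off (9 up to 15 hr) and 11.1% in mid dark (15 up to 21 hr). Downstream of Ppara on chromosome 15, past a gap of 4152 bases, lay 2210021J22Rik (now Cdpf1) and then Pkdrej, both annotated on the minus strand. Both were highest at ZT8, with 44.3 and 27.5 rpbp for 2210021J22Rik and 28.8 and 13.8 for Pkdrej, and their peaks at 8.38 and 8.70 hr were close to the 8.08 hr of Ppara. The files do not give strand, so reads running past the end of Ppara cannot be told apart from reads of these genes. C630028N24Rik (now Hykk) lay beside Psma4, and Slc38a3 beside Gnat1.

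Slc38a3 had the highest mean of all members, 166 rpbp, and the best fit, with an R squared of 0.918. The gene (chr9:107553486-107571322, minus strand) encodes SNAT3, a glutamine transporter of hepatocytes. Its values were 167 and 206 rpbp at ZT0, 236 and 259 at ZT4, 254 and 195 at ZT8, 149 and 153 at ZT12, 81.5 and 94.5 at ZT16 and 117 and 76.3 at ZT20. Every library from ZT0 to ZT8 exceeded every library from ZT12 to ZT20, and the gene passed under all 26 other settings. Gnat1, 5482 bases away and known as the transducin subunit of rod photoreceptors, peaked at nearly the same hour (5.33 against 5.22 hr) at a far lower level, from 3.1 to 12.8 rpbp.

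Uox, the only member of 23 tested genes on the NAD, folate, vitamin and one-carbon list (4.35%), encodes urate oxidase, an enzyme of purine breakdown. It read 57.4 and 81.0 rpbp at ZT0, 102.5 and 142 at ZT4, 107 and 98.9 at ZT8, 63.3 and 50.6 at ZT12, 35.4 and 14.5 at ZT16 and 79.7 and 63.3 at ZT20. The overlapping Dnase2b had the same peak, 4.53 hr, at a lower level. Oat, ornithine aminotransferase, was the single member of 68 tested genes on the amino acid and urea cycle list (1.47%, beside 1.89% of all tested symbols), and it read 24.7 and 31.0 rpbp at ZT4 against 5.8 and 11.6 at ZT16. Clone-named members whose current names are of amino acid enzymes were A530050D06Rik (Aspg, an asparaginase), C630028N24Rik (Hykk, hydroxylysine kinase) and 9030617O03Rik (Dglucy, D-glutamate cyclase); they were grouped after their values were seen. Their means over the 12 libraries were 50.1, 21.3 and 11.6 rpbp.

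Each of the glucose lists gave a single member. Fbp1, the fructose-1,6-bisphosphatase of gluconeogenesis, was the only member of 19 tested genes on that list (5.26%, beside 1.89% of all tested symbols). It was already high at ZT0 (82.7 and 69.1 rpbp), stood at 76.8 and 89.2 at ZT4, and reached 27.3 and 59.0 at ZT16. The ZT12 replicates were 60.0 and 28.2, and Fbp1 did not pass on rescaled values or without ZT0 replicate 2, ZT12 replicate 1 or ZT16 replicate 1. Phka2, a subunit of the kinase that activates glycogen breakdown, was the only member of 27 on the glucose use and glycogen list (3.70%), from 4.1 rpbp at ZT16 to 13.4 at ZT4. Phka2 passed neither after rescaling nor after removal of the GC trend.

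Hormone-related genes followed. Serpina6, the carrier of glucocorticoids in blood, had the largest ratio of all members when 1 rpbp was added to each mean: its highest time-point mean was then 7.39 times its lowest. The ratios of other members below are on the same scale. Values were 3.6 and 7.0 rpbp at ZT0, 20.8 and 13.8 at ZT4, 25.8 and 36.5 at ZT8, 5.0 and 9.1 at ZT12, 3.4 and 3.3 at ZT16 and 6.7 at ZT20 in both libraries. All 4 libraries of ZT4 and ZT8 stood above the other 8, but the gene passed neither after rescaling nor after the GC trend was removed. ZT8 replicate 2, its highest library, was also the one whose signal fell most with exon GC content.

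Nuclear receptors outside the clock gave 3 members of 22 tested genes (13.6%), with Nr1d1 and Nr1d2 not counted. Thra, the thyroid hormone receptor alpha gene, read 6.1 and 6.7 rpbp at ZT4, 8.1 and 3.9 at ZT8 and 1.4 and 1.8 at ZT16, with a peak at 5.82 hr. Its 3′ end shares 1072 bases with Nr1d1, which runs on the opposite strand and peaked at 6.22 hr from 1.0 to 40.6 rpbp. Since counting ignored strand, Nr1d1 reads in the shared bases would count toward Thra. Nr3c2, the mineralocorticoid receptor gene, ranged from 11.1 to 30.1 rpbp, and Nr6a1, an orphan receptor gene, from 3.8 to 8.5. After rescaling or removal of the GC trend, Nr3c2 did not pass. Sgk2, a kinase of the glucocorticoid-responsive SGK family, was the member nearest to the early edge, at 3.05 hr, and passed in only 2 of the 12 fits that left out a library.

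Signalling members included Pde4b and Frap1 (now Mtor), 2 of 37 tested genes on the insulin, glucagon and nutrient list. Pde4b, a phosphodiesterase that degrades cAMP, ranged from 0.7 rpbp at ZT12 to 7.2 at ZT4. Frap1, the kinase at the centre of nutrient sensing, moved within a narrow range, from 5.8 rpbp at ZT16 to 11.3 at ZT8, but fitted well (R squared 0.819) and passed in all 12 fits that left out a library. Erbb4, a receptor for neuregulins, had the largest ratio among named loci on no list (5.94 times). It read 6.4 and 8.3 rpbp at ZT0, 7.4 and 3.5 at ZT4, 7.7 and 9.3 at ZT8, 2.6 and 0.9 at ZT12, 0.6 in both libraries at ZT16 and 2.4 and 3.1 at ZT20. Erbb4 spans 1068094 bases, and long genes were frequent: 27 members (22.7%) spanned over 100 kb, against 11.4% of all tested symbols and 19.9% of the strong symbols peaking around lights on.

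Of 44 tested cytochrome P450 genes, Cyp2c44 (now Cyp2c23), an arachidonic acid epoxygenase gene, was the only member. It read 36.6 and 41.4 rpbp at ZT4, 23.9 and 18.9 at ZT8 and 8.4 and 5.2 at ZT16, and passed under all 26 other settings. Among secreted proteins F5, coagulation factor V, joined Serpina6 as the second of 98 tested genes on the complement, coagulation and serpin list; it ranged from 9.9 rpbp at ZT16 to 32.5 at ZT4. Further unlisted members with large ratios were Spp2 (3.63 times), Klhdc7a (3.42 times), Bach2, a transcriptional repressor (3.08 times), Arsa, the lysosomal arylsulfatase A (2.96 times), Pkhd1, the gene of recessive polycystic kidney disease (2.87 times) and Ppfibp1 (2.36 times). Tom1l2 had a ratio of 2.07.

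**Figure D5:**
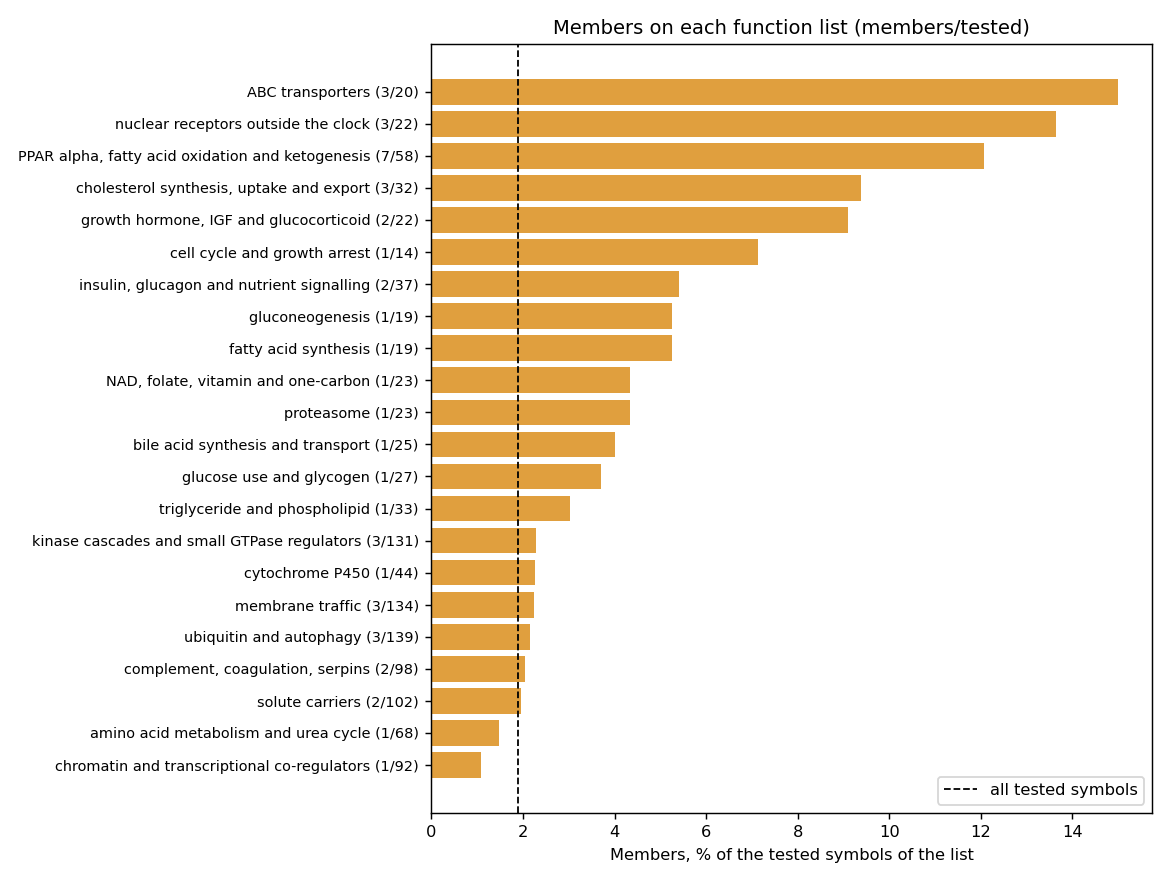
Members as a percent of the tested symbols of each function list with at least 1 member (horizontal axis; members and tested symbols in brackets); the dashed line is the share over all tested symbols, 1.89%. ABC transporters (15.0%), nuclear receptors (13.6%) and fatty acid oxidation (12.1%) have the longest bars, the first 2 from 3 members each.

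Among lists of general cell functions, those with 3 members each sat near the background of 1.89%. Ubiquitin and autophagy genes gave 3 members of 139 tested (Rnf186, Fbxl20, Fbxo9), membrane traffic 3 of 134 (Exoc4, Vps41, Exoc2), and kinase cascades and small GTPase regulators 3 of 131 (Arhgdia, Dock4, Dock8), all between 2.16% and 2.29%. Lists with a single member varied more. They were the proteasome (Psma4, 1 of 23 tested, 4.35%) and chromatin regulators (Jarid1a, now Kdm5a, 1 of 92, 1.09%). The cell cycle list gave Tert, the telomerase catalytic subunit (1 of 14, 7.14%), and triglyceride and phospholipid genes gave Pla2g6 (1 of 33, 3.03%). RNA processing (105 tested), zinc finger proteins (122), conjugating enzymes (74) and heat shock and stress genes (54) gave none. In all, 39 members were on a list and 80 on none, and 39 carried clone names, 19 of which matched a current RefSeq gene. Arhgdia, a small GTPase regulator, was the best expressed of the general group, at 40.1 and 30.5 rpbp at ZT4, 40.1 and 43.4 at ZT8 and 19.2 and 14.3 at ZT16.

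Cell type markers were read beside these results. Hepatocyte markers summed to between 737 and 1966 rpbp per library, and a 24-hr wave fitted them poorly (R squared 0.0329). They read 737 and 1529.5 at ZT0, 1338 and 1369 at ZT4 and 1194 and 1867 at ZT8. At ZT12 they read 1723 and 1846, at ZT16 835 and 851 and at ZT20 1671 and 1966. Kupffer cell markers summed to between 21.6 and 56.7 and endothelial markers to between 20.4 and 41.0. Lymphocyte markers summed to between 2.9 and 9.5 and biliary markers to between 1.0 and 2.5. No marker was a member. Stellate markers, from 12.4 to 16.8, followed a 24-hr wave of the opposite phase (peak 16.2 hr, R squared 0.670), with 4 of 9 markers at or under 1 rpbp. Fewer cells of a type and less RNA per cell cannot be told apart in these samples. The members Tap1 and Ifih1, both interferon-linked and grouped after their values were seen, peaked at 3.24 and 3.70 hr, while the Kupffer marker sum ran from 27.2 to 33.6 rpbp at ZT4 and from 43.5 to 47.2 at ZT16. What marker levels contribute to any member was not tested.

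Some member symbols overlap between their start and end, and whether they share exon reads was not tested. In 11 loci more than 1 symbol was a member: mKIAA0321 with Zfyve26, 1300010F03Rik (Vwa8) with BC027670, Arsa with AK082325, AK085322 with AK085480, AK080902 with Park2, AK168860 with AK016444, AK016185 with BC040803, Uox with Dnase2b, Frap1 with Angptl7, Man2b2 with a second entry of that name in capitals, and AK054076 with AK029473. A further overlap, with a tested symbol that is no member, was found for 24 members, F5, Peci, Thra, Bach2 and Psma4 among them. No other tested symbol overlapped 75 of the 119.

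Promoter windows of 300 bases (250 before the start and 50 after; RefSeq, build GRCm38.p6) were found for 78 members, or 77 genes with 97 windows. E-boxes (CACGTG) lay in 12.4% of these windows, against 9.92% of the windows of tested genes and 7.15% of all 32851 windows. The E prime-box CACGTT lay in 9.28%, 5.29% and 4.68%. D-boxes (TTATGTAA or TTACGTAA) and the direct repeat 1 element (AGGTCA repeated after 1 base) were in none of the members' windows. They lay in 0.974% and 0% of the windows of tested genes and in 1.06% and 0.0396% of all windows. The TAGGTCA of REV-ERB and ROR elements and the cAMP response element TGACGTCA were each in 1.03% of the members' windows. The shares were 2.09% and 3.08% for the windows of tested genes and 2.61% and 1.79% for all windows. Both strands were searched. The motifs can overlap in part, since ACGT is common to both E-boxes and the cAMP response element and AGGTCA to TAGGTCA and the direct repeat. A match is a string of letters and not a shown binding site. Named members with an E-box before the start were Arsa, Zfyve26, 9030612M13Rik (Zfp871) and Psma4, and the 250 bases before each start are shown 5′ to 3′ along the gene so that the place of the E-box, in capitals, can be seen.
Arsa, chr15:89477425-89477674, minus strand: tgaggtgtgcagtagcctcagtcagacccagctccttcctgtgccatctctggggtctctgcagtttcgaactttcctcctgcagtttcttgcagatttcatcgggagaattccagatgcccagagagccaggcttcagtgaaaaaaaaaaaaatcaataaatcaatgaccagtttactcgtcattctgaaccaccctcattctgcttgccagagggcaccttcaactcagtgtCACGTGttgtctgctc
Zfyve26, chr12:79296283-79296532, minus strand: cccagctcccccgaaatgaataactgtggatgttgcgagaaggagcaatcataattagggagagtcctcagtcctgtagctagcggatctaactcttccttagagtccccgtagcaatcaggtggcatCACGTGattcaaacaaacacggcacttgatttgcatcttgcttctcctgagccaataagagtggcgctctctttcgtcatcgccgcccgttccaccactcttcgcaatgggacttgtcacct
Zfp871, chr17:32788288-32788537, minus strand: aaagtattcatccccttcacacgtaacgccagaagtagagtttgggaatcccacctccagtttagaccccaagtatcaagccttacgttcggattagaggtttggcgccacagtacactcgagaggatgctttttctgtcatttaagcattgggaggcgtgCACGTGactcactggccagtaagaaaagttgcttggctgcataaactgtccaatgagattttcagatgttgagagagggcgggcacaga
Psma4, chr9:54950609-54950858, plus strand: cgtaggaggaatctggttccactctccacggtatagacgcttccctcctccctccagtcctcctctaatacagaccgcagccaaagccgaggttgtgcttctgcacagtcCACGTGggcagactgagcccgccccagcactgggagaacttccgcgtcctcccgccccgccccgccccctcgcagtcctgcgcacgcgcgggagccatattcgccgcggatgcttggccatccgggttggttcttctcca
The E-box begins 16 bases before the start in Arsa, 122 in Zfyve26, 89 in Zfp871 and 140 in Psma4. Psma4, a proteasome subunit gene, ran from 2.9 rpbp at ZT16 to 6.2 at ZT4, and Arsa from 2.9 at ZT16 and ZT20 to 12.4 at ZT4. Psma4 passed neither after rescaling nor after removal of the GC trend. The share of E-boxes among the members was near that of tested genes.

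Several genes lay close to the limits. Ndfip1 was the member closest to the limit on fit (R squared 0.601) and Abcc2 the nearest gene outside it. At the early edge mKIAA0797 fell outside at 2.999 hr. At the late edge 9030612M13Rik was in at 8.98 hr and mKIAA1188 out at 9.05 hr. Series peaks of a member differed by a median of 1.00 hr and by less than 4 hr in all 119, and 97 members peaked in the window in both series. Because the rule fitted both series together, this closeness is in part fixed by the choice and is no measure of repeatability. Leaving out each library in turn, 50 of the 119 passed the rule in all 12 fits.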

How the data were processed

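Liver nuclei were lysed with urea and detergent, RNA was taken from the chromatin pellet, polyadenylated RNA was removed, and libraries were sequenced on an Illumina Genome Analyzer II. Base calling used CASAVA 1.7 and alignment used TopHat to build mm9, per the submitters' processing notes. The deposited signal values were made by the authors: uniquely mapped reads in the merged exons of all isoforms of a symbol, without regard to strand, divided by the exon length and scaled to a common number of uniquely mapped reads (rpbp). Libraries of ZT8 and ZT20 were sequenced on 2 lanes and the other 8 on 1 lane. The deposited values give no read counts per gene, and no counting interval was computed; the study lists the mapped sequences of each library, which were not used here; sums over all symbols ran from 118342 to 160545 rpbp per library. The authors' columns of rhythm score, phase and p-value were not used, and 27919 blank lines were dropped.

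The rule was applied with Python 3.11.15 and numpy 2.4.6. Overlap means any shared base between file coordinates. Fits with limma 3.58.1 in R 4.3.3 used log2(rpbp + 1), all 6284 symbols above 6 rpbp and Benjamini-Hochberg adjustment; the scripts were tested on simulated data. Strand and exon GC content came from GENCODE M1 on the same build (98.0% of tested symbols matched, by name or by position), and current names from RefSeq by synonym. Samples of a time point are named replicates 1 and 2, and nothing in the labels says whether they were single or pooled animals, so the tests measure the spread between these libraries. The members, the function lists and the tests were chosen with earlier results of these data known. Genes named are, on each list, up to 4 members that differed most between their highest and lowest time points (a ratio of means after adding 1 rpbp); the 12 named loci on no list with the largest ratio; the 5 loci with the highest mean; genes at the limits; and loci with more than 1 member symbol. Others were chosen after their values were seen, and some members that the rule names are not reported here. Alternatives changed the threshold, the ratio, the scale, the library scaling, GC content, a lane term, the replicate block, the window and the libraries.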

Additional observations from a re-analysis of the deposited data

How the results depend on the processing

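All 119 members passed at a threshold of 3 rpbp (187 symbols in all), with a lane term (290) and with a replicate block (157). These settings could add symbols but could not drop a member. With the lane term or the block, R squared was taken over the variance left after it. The rule gave 50 symbols at 12 rpbp, 274 with no threshold, 74 on rescaled values, 265 and 272 in the replicate 1 and replicate 2 series alone and 72 with a window from 4 up to 8 hr. The GC trend removed left 99 symbols, 63 of them members, and the ratio of time-point means left 96. Without each library in turn the count ran from 96 to 191, the highest without ZT8 replicate 2, where 103 members passed. In 3 settings together (rescaled, GC trend removed, lane term) 53 members passed, though the lane term could drop none.

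The limma F-test called 6 members with no threshold, 15 at 12 rpbp, from 13 to 35 without each library, and 29 with the replicate block. The comparison of ZT4 with ZT16 called 2 members with a replicate block, 4 on rescaled values and from 0 to 23 without each library (0 without ZT4 replicate 1 or 2, 23 without ZT16 replicate 1). The main tests did not pair libraries by replicate number. Between time points the same-number deviations correlated from -0.117 to 0.32, over 0.1 in 5 of 15 pairs, which does not settle whether a series shares a shift. On rescaled values 17.6% of the genes chosen in replicate 1 peaked in the window with an R squared over 0.6 in replicate 2; the other shares and the count of 0 limma calls stayed within 1.5 times under the settings run. Of the 71 named members, 10 passed the rule under all 26 other settings, and none passed fewer than 11. Those counts include the settings that could not drop a member. List members were 39 of 119 under the rule, 24 of 50 symbols at 12 rpbp and 24 of 74 on rescaled values. In the last 2 settings, 9 and 14 lists changed their count by 1.5 times or more. No counting interval was computed, and 50 members averaged under 6 rpbp.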

Other observations

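Several fatty acid oxidation genes outside the rule had larger ratios than the 7 members on that list, with a lower R squared. Fabp1, the liver fatty acid binding protein, had a highest time-point mean 9.24 times its lowest (1 rpbp added), with a fitted peak at 3.66 hr and an R squared of 0.514. Acot4, a peroxisomal acyl-CoA thioesterase gene, had a ratio of 8.23, a peak at 7.52 hr and an R squared of 0.511. Pex11a, a peroxisome proliferation gene, had a ratio of 4.29, a peak at 7.28 hr and an R squared of 0.495. Acaa1b, a further peroxisomal thiolase gene, reached 6.59 at 3.81 hr with an R squared of 0.287. Strong rhythms on the same list peaked around lights on instead: Etfa at 0.0237 hr and Crot at 23.8 hr. These genes were chosen after their values were seen.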
